A study of Drosophila melanogaster with 2 samples.

Results

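Peaks with GC-rich summits were those pooled Klumpfuss peaks on the 6 main chromosome arms whose sequence within 50 bp of the summit had a GC content of 50% or more. They numbered 433 of 3087 peaks, a share of 14.0% (95% Wilson interval 12.8 to 15.3%). The other 2654 peaks had GC contents below that limit. The peaks come from chromatin immunoprecipitation with sequencing (ChIP-seq) on whole embryos of 0 to 24 h from the klu-GFP strain, in which Klumpfuss carries an enhanced green fluorescent protein (klu-eGFP). The labels give this strain an insertion targeting klu. An anti-GFP antibody was used on chromatin sheared by sonication. The samples form 1 group of 2 biological replicates, and both carry the fusion protein. No control library was analysed here, whole embryos mix all tissues, and peak lists hold no tissue markers against which the label could be checked. Depth is unknown because the lists hold no read counts.

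Klu is related to the EGR and WT1 zinc finger proteins and is known in Drosophila for its part in neuroblast self-renewal and in sensory organs. These proteins recognise a short GC-rich site. In the fly genome, coding exons are richer in GC than introns and intergenic sequence.

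The strongest GC-rich peaks are shown first, because their summits lay close to gene starts and differed in the words they held. The sequences run 50 bp to either side of the summit on the plus strand, from the RefSeq Release 6 genome (dm6), with coordinates counted from 1. Capitals mark matches to any of the 19 short words searched on both strands, among them the Klu/EGR words GTGGGCG and GTGGGTG and the DNA replication-related element (DRE) word TATCGATA.
l(3)73Ah, 3L:16588186-16588286: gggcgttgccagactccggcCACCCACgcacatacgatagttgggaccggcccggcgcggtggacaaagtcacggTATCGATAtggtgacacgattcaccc
eIF3f1, 3R:4714152-4714252: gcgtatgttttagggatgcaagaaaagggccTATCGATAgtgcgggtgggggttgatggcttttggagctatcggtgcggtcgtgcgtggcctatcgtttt
moody, X:2050230-2050330: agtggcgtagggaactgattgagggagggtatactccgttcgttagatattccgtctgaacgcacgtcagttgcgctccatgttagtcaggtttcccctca
Adss, 3R:20830595-20830695: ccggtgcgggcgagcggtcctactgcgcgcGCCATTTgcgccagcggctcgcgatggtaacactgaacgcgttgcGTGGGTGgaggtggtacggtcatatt
The summit of l(3)73Ah held both a DRE and a Klu/EGR word, that of eIF3f1 a DRE, that of Adss a Klu/EGR word and a Pho word, and that of moody none of the 19.

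The summits of highest GC content are shown because they mark the far end of the range. Capitals again mark matches, here mostly to the GC box GGGCGG.
Snx27, X:5737297-5737397: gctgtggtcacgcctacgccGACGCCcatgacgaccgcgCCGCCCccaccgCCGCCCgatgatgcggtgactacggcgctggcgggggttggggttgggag
CG7465, 3L:4480878-4480978: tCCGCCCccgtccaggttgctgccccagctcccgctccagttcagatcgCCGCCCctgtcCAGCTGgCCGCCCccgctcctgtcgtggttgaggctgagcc
CG1628, X:10602347-10602447: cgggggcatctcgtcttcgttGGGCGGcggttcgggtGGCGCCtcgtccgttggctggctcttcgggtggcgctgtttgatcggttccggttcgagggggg
MEP-1, 3L:2632979-2633079: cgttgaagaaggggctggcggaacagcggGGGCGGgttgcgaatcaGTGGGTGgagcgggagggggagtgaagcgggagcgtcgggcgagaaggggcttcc
The summits of Snx27 and CG7465 lay in coding exons, that of CG1628 in a promoter and that of MEP-1 in an intron. A pair of further strong peaks is shown for its Klu/EGR word, GTGGGTG, which is CACCCAC on the other strand.
CG43293, 3L:6185020-6185120: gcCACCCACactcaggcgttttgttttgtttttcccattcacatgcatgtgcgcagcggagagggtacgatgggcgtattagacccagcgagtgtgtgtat
CrebB, X:18366390-18366490: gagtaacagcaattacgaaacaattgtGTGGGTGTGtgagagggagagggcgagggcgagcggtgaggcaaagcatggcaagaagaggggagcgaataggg

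The GC content of the 433 summits averaged 56.5% (SD 4.95) with a median of 55.4% and a highest value of 74.3%, whereas the other summits averaged 32.7% (SD 8.18). These values follow from the rule and carry no test. Just inside the limit, 36 peaks at 50.5% GC had a median signal of 80.4, and just outside it, 50 peaks at 49.5% had a median signal of 84.5. Of those inside, 47.2% lay in promoters, and of those outside, 60%. Among windows of the same width tiled over the main arms, 24.0% of 1323188 were as rich in GC, so GC-rich summits were scarcer than such windows.

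**Figure D1:**
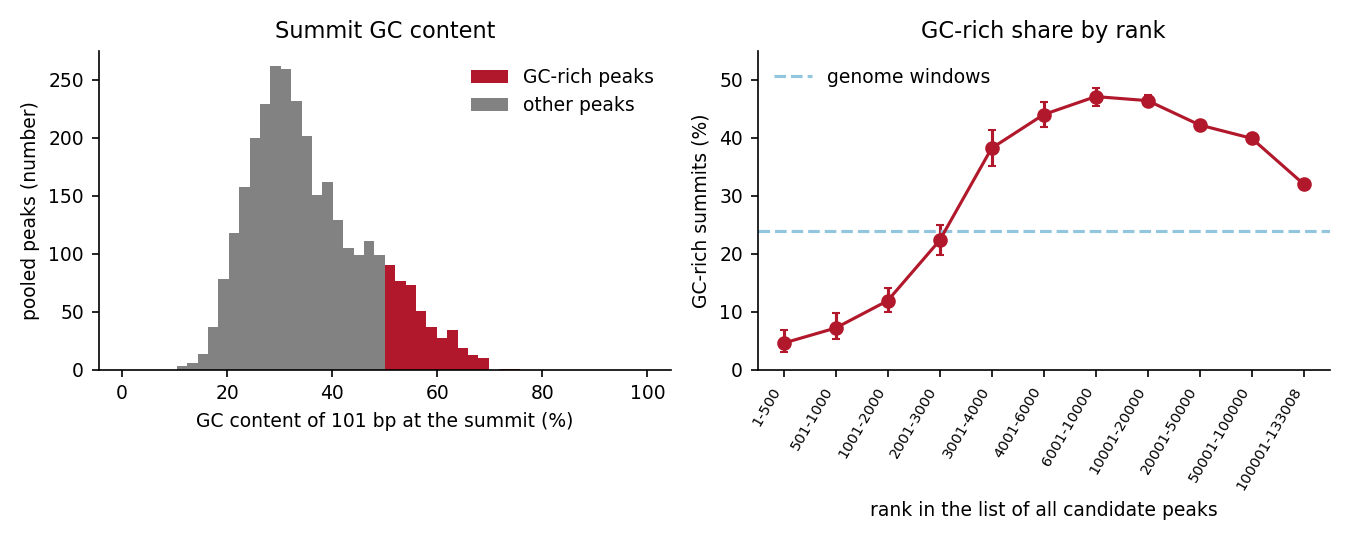
Left, number of pooled peaks by GC content within 50 bp of the summit (%), for GC-rich and other peaks. Right, share of GC-rich summits (%) by rank in the list of all candidate peaks, with 95% Wilson intervals and the genome windows as a dashed line. The share is 4.60% in the first 500 ranks and 47.1% in ranks 6001 to 10000.

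The share of GC-rich summits climbed down the ranking. It was 4.60% in the first 500 ranks, 7.20% in ranks 501 to 1000, 11.9% in ranks 1001 to 2000, 22.3% in ranks 2001 to 3000 and 38.2% in ranks 3001 to 4000. It peaked at 47.1% in ranks 6001 to 10000 and was 32.0% in the last bin. Among 129810 ranked peaks below the score of the thresholded lists it was 39.2%, above the 24.0% of genome windows. The conservative list held 284 GC-rich summits (11.9%), the list of replicate 1 held 189 (12.5%, 95% Wilson interval 10.9 to 14.3%) and that of replicate 2 held 217 (8.47%, 7.46 to 9.61%).

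GC-rich summits lay in promoters less often than other summits by a difference that did not pass, and in coding exons far more often. A promoter summit is one within 500 bp of an annotated start. Of the 433 GC-rich summits, 204 were in promoters (47.1%) against 52.0% of other summits, a difference of -4.85 percentage points (95% interval -9.87 to 0.230, Fisher's exact test, adjusted p = 0.109), with 51.3% of all pooled summits in promoters. Coding exons held 41 GC-rich summits (9.47%) and 5 others (0.188%), a difference of 9.28 points (6.86 to 12.4, Fisher's exact test, adjusted p = 9.59e-30), where the share over all peaks was 1.49%. The coding-exon difference was 7.71 points in replicate 1's own list, 3.52 in replicate 2's, 4.43 in the conservative list, 3.72 in peaks of at least 1 replicate's list and 2.80 above the median signal, and passed in each. Introns held 25.6% of GC-rich and 33.9% of other summits (Fisher's exact test, adjusted p = 0.00213, 32.8% of all peaks), a difference that did not pass in the list of replicate 1 alone (adjusted p = 0.225) or of replicate 2 alone (adjusted p = 0.221). Intergenic sequence held 15.2% and 12.3% (adjusted p = 0.122, Fisher's exact test, 12.7% of all peaks), and 3' UTRs held 1.39% and 0.452% (adjusted p = 0.0720, Fisher's exact test, 0.583% of all peaks). Only 1 GC-rich summit lay in a 5' UTR and 4 in non-coding exons, and neither class passed. P-values were adjusted over the 7 classes.

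**Figure D2:**
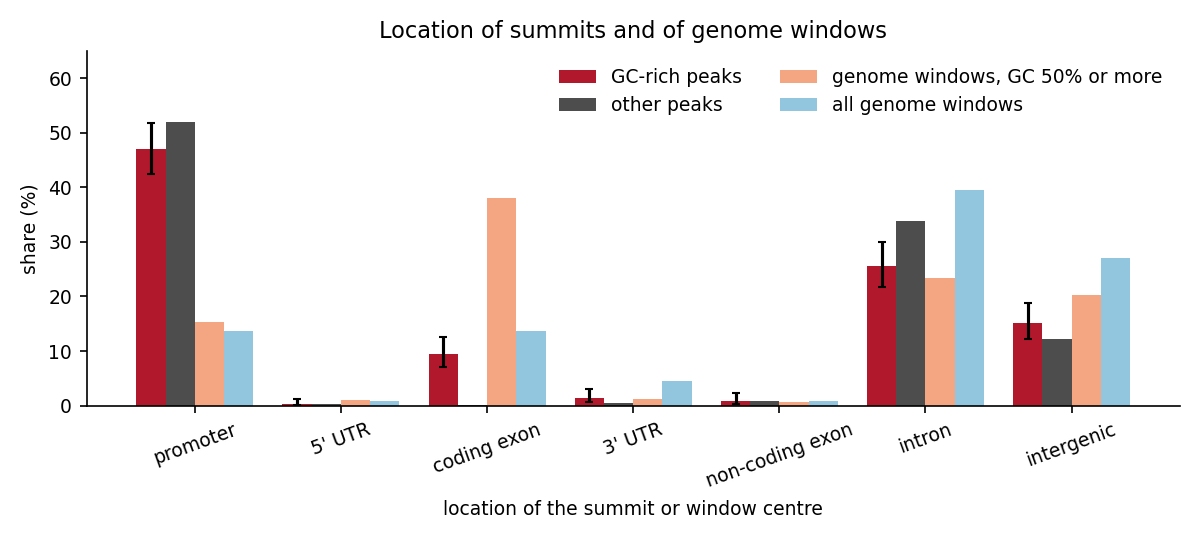
Share (%) of GC-rich peaks (with 95% Wilson intervals), of other peaks, of genome windows with GC of 50% or more and of all genome windows in each location class. Coding exons hold 9.47% of GC-rich and 0.188% of other summits, against 38.1% of the GC-rich windows.

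Set beside the genome, both groups of peaks favoured promoters. Promoters held 47.1% of GC-rich summits against 15.3% of GC-rich genome windows, and 52.0% of other summits against 13.6% of all windows. Coding exons held 9.47% of GC-rich summits against 38.1% of GC-rich windows, so coding exons were under-represented among the summits even though 66.5% of coding windows were GC-rich. Of the 46 pooled summits in coding exons, 41 were GC-rich (89.1%). Introns held 25.6% of GC-rich summits against 23.4% of GC-rich windows, and 33.9% of other summits against 39.5% of all windows. GC-rich windows thus also had a lower intron share than all windows, which include them. The ratio of the summit share to the window share in introns was 1.10 for GC-rich and 0.858 for other summits.

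Within promoters, GC-rich summits lay upstream of the nearest start less often. Of 204 GC-rich promoter summits 125 were upstream (61.3%) against 81.8% of other promoter summits, a difference of -20.5 points (-27.6 to -13.8, Fisher's exact test, adjusted p = 5.48e-10 over 2 measures). Among GC-rich genome windows in promoters, 29.6% were upstream. The share was not computed for other promoter windows, and the part of base composition in the difference was not tested. The share within 150 bp of a start was 58.8% for GC-rich and 57.2% for other promoter summits (Fisher's exact test, adjusted p = 0.705). Neither measure was among the planned tests.

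The coding-exon summits, listed after their values were seen, were mostly weak and found by neither replicate alone. Pooled signals lay between 12.1 and 289 (median 73.1), 3 of 41 were above the median signal of all pooled peaks (106), and 31 were in the list of neither replicate. An exon of otp, a homeobox gene, had the highest pooled signal, 289, and replicate signals of 142 and 140.4. An exon of scrib, a cell polarity gene, had 147, 51.1 and 111. Exons of Egfr, the epidermal growth factor receptor (64.8 in the pooled list, 33.2 and 31.7 in the replicates), and of the Hox gene pb (67.6, 12.9 and 34.0) were in neither list. The opa-type repeat word CAGCAGCA lay at 8 of the 41, and at 5.08% of all GC-rich summits, 0.972% of all pooled summits and 5.86% of GC-rich coding windows.

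Over all signals together, GC-rich peaks were recovered less often by each replicate on its own, by a wider margin in replicate 2. The list of replicate 1 held 38.8% of GC-rich and 49.4% of other peaks, a difference of -10.6 points (-15.4 to -5.52, Fisher's exact test, adjusted p = 5.01e-05, 47.9% of all peaks). The list of replicate 2 held 45.5% and 76.6%, a difference of -31.1 points (-36.0 to -26.1, Fisher's exact test, adjusted p = 2.92e-36, 72.2% of all peaks). Both lists held 24.5% of GC-rich and 44.0% of other peaks (Fisher's exact test, adjusted p = 7.70e-15, 41.3% of all peaks), and neither list held 40.2% and 18.1% (adjusted p = 3.81e-22, Fisher's exact test, 21.2% of all peaks). Among peaks above the pooled median signal none of these 4 differences passed. There the shares in the list of replicate 2 were 94.1% and 97.2% (Fisher's exact test, adjusted p = 0.164).

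Within peaks of like signal, the list of replicate 1 held a larger share of GC-rich than of other peaks at every level. Over all peaks its difference went the other way. In the weaker peaks, the list of replicate 2 held a smaller share of GC-rich than of other peaks. At pooled signals of 192 and above, the list of replicate 1 held all GC-rich and 96.8% of other peaks, and that of replicate 2 held all GC-rich and 99.8% of other peaks. From 124 to 192, replicate 1 held 75% of GC-rich and 71.0% of other peaks, and replicate 2 held 97.9% of each. From 93.3 to 124, replicate 1 held 50.7% of GC-rich and 35.7% of other peaks, and replicate 2 held 57.7% and 83.2%. From 74.3 to 93.3 the shares were 25.8% and 12.7% for replicate 1 and 33.0% and 50.4% for replicate 2. Below that they were 24.0% and 16.7% for replicate 1 and 27.1% and 39.2% for replicate 2. A peak that overlaps a stronger one can be counted here through that neighbour. Of 63 such GC-rich peaks (median signal 11.5), 31 were in the list of replicate 1 and 46 in that of replicate 2. Such overlaps also occurred at 158 other peaks, and the lowest level was not split by them. These splits are descriptions with no test.

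GC-rich peaks were weaker. Their median pooled signal, the value the authors deposited per peak, was 78.0 (quartiles 64.5 and 103) against 113 (82.5 and 182) for other peaks. Of the GC-rich peaks 23.6% lay above the pooled median signal and of the others 54.3%, a difference of -30.7 points (-34.9 to -26.1, Fisher's exact test, p = 1.37e-33), where the split puts 50% of all peaks above. The shares were 33.8% and 62.4% in promoters and 14.4% and 45.5% elsewhere. That GC content is lower in stronger peaks was known of these data beforehand. Over the pooled peaks, the median signal in replicate 1 was 42.8 for GC-rich and 47.5 for other peaks, and in replicate 2 it was 44.0 and 70.3. Within each replicate's own list the difference in the share above that list's median was -28.1 points in replicate 1 and -25.9 points in replicate 2. The log2 ratio of replicate 2 over replicate 1 had a median of 0.07 for GC-rich and 0.54 for other peaks. Of GC-rich peaks 26.9% lay above the median ratio of all peaks and of others 53.7% (Fisher's exact test, p = 1.09e-24). The difference was present in promoters, 36.9% against 63.0%, and outside them, 18.1% against 43.8%. Tests of this ratio were added to those planned.

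**Figure D3:**
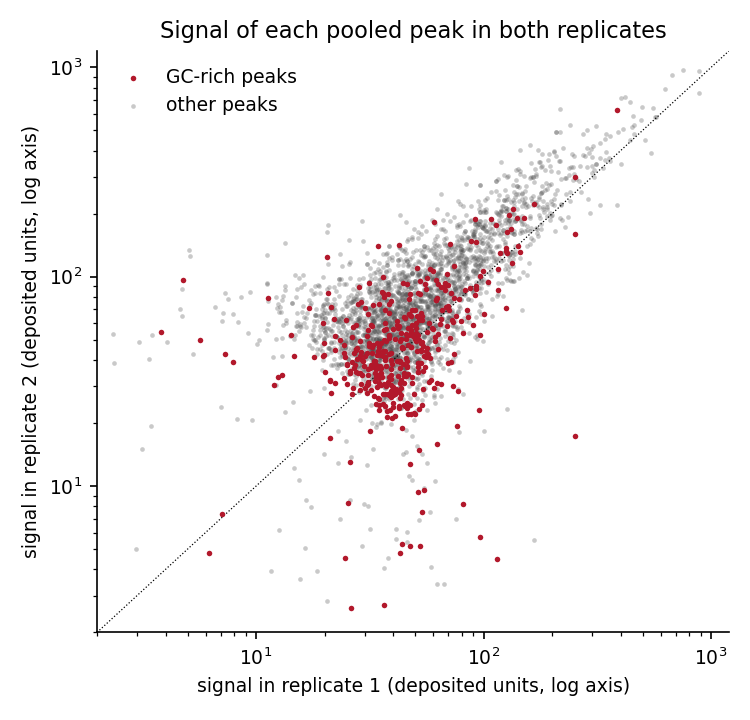
Signal of each pooled peak in replicate 1 and replicate 2 (deposited units, log axes), with the line of equal signal dotted. GC-rich peaks lie nearer the line, with a median log2 ratio of 0.07 against 0.54 for other peaks.

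The strongest GC-rich peaks were mostly promoter peaks found by both replicates. Of the 20 of highest signal that overlap the conservative list, 17 lay in promoters, 2 in introns and 1 in a coding exon, and all 20 were in the lists of both replicates. Strong peaks of any GC content were much alike in this: of other peaks with a signal of 192 or more, 69.0% lay in promoters, and 96.8% and 99.8% were in the lists of replicate 1 and replicate 2. The peak of l(3)73Ah, which encodes a RING finger protein, had a pooled signal of 1008, with 385 for replicate 1 and 627 for replicate 2, and its summit lay 239 bp upstream of the start at 62.4% GC. The translation initiation factor gene eIF3f1 had 540.4, 253 and 298, with the summit 20 bp upstream. The gene moody, a receptor of the glia that form the blood-brain barrier, had 423, 253 and 160.3, and was among 5 of the 20 that were higher in replicate 1.

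Next in signal, Pdk, pyruvate dehydrogenase kinase, had a pooled signal of 374, EMRE, a subunit of the mitochondrial calcium uniporter, 350.4, and Adss, adenylosuccinate synthetase, 342. Of regulators, CrebB, a CREB transcription factor, had 314, aop, an Ets repressor, 282, and pum, a translational repressor, 241. The remaining promoter peaks above 240 included CG43293 (326), CG31871 (321), CG14971 (298) and DPCoAC (244), a mitochondrial carrier of dephospho-CoA. The intron peaks among the 20 lay in Dyro (262, with 126 and 137 in the replicates) and CG8547 (248, with 93.1 and 147). Baldspot, a fatty acid elongase, had a pooled signal of 277, with 60.8 for replicate 1 and 184 for replicate 2.

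GC-rich peaks overlapped a stronger peak more often. Of them 14.5% did so against 5.95% of other peaks, a difference of 8.60 points (5.44 to 12.3, Fisher's exact test, p = 4.59e-09, 7.16% of all peaks). In the list of replicate 2 alone the difference was 19.4 points, and in that of replicate 1 alone it was 3.17 points (Fisher's exact test, p = 0.0488). The stronger partner's summit lay a median of 204 bp away and had a median GC content of 31.7%, the same as the median of all other peaks. Such peaks have low pooled signals, with a median of 11.5, while their replicate values can come from the neighbour. Gs2, glutamine synthetase, had a pooled signal of 10.2 but 81.4 for replicate 1 and 8.23 for replicate 2, and His2Av had 12.2, 67.9 and 90.7.

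The summit position was less steady. Summits of both replicates lay over 100 bp apart at 16.3% of GC-rich and 9.91% of other peaks (Fisher's exact test, p = 2.29e-04), with medians of 39.0 and 30 bp. This test was not planned. It was not split by signal or by overlap with a stronger peak, in both of which GC-rich peaks differed. Replicate 1's own summit was GC-rich at 76.3% of the GC-rich peaks found in its ranked list and that of replicate 2 at 74.7%. Other peaks were not examined in this way.

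GC content around these summits fell below that of other peaks away from the centre. At 300 bp it averaged 41.8 ± 0.360% (SE) around GC-rich and 44.2 ± 0.137% around other summits, and at 1000 bp 42.9% around both. The share above the median GC at 300 bp was 36.7% against 49.2% (Fisher's exact test, p = 1.30e-06), and at 500 bp 37.4% against 50.3% (Fisher's exact test, p = 6.04e-07), where the difference outside promoters did not pass (32.8% against 39.0%, Fisher's exact test, p = 0.0764). Both distances were tested in addition to the planned tests.

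**Figure D4:**
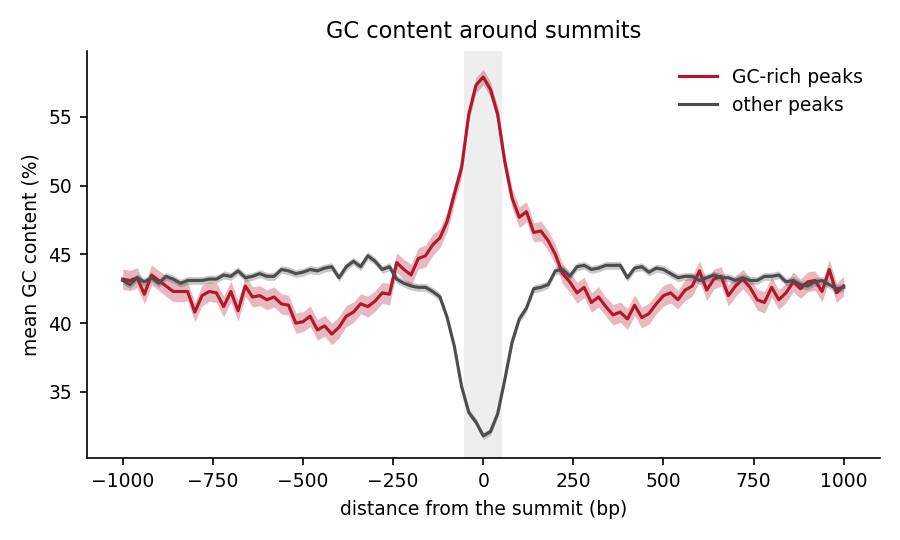
Mean GC content (%) by distance from the summit (bp) for GC-rich and other peaks, with the standard error over peaks shaded and the window used by the rule in grey. Around GC-rich peaks it is 39.7% at -400 bp and 40.3% at 400 bp, against 43.3% at both around other peaks. The windows drawn are narrower than those behind the values in the text.

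The Klu/EGR words were more frequent at GC-rich summits than in genome windows of like GC content. One or both of GTGGGCG and GTGGGTG lay within 50 bp of 82 of the 433 summits (18.9%, 95% Wilson interval 15.5 to 22.9%) against 7.50% of GC-rich genome windows, and 4.50% of all pooled summits held one. GTGGGCG lay at 8.08% of GC-rich summits against 3.96% of windows, and GTGGGTG at 11.8% against 3.89%. In the list of replicate 1 alone, GTGGGCG lay at 5.29% of GC-rich summits, 1.34 times the share of windows where the pooled list gave 2.04 times. Read backwards, the first word lay at 3.70% against 1.73%, so that its backward form was more frequent at summits too. The second reads the same backwards and has no such comparison. By GC class the share was 13.0% at 50 to 55% GC against 6.08% of windows, 20.8% at 55 to 60% against 7.74%, and 28.6% above 60% against 11.5%. The median distance from the summit was 20 bp, and 51 of 82 lay within 25 bp. Counted within 25 bp, the ratio to windows was 2.68 for GTGGGCG and 2.67 for GTGGGTG, against 2.04 and 3.03 within 50 bp. Whether the words lay nearer the summit than evenly spread words would was not tested.

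Of the 19 words, 11 had an interval above the share in GC-rich windows. With GC-rich promoter windows as the control, 9 did. Summits and windows differed in location, as coding exons held 9.47% of GC-rich summits and 38.1% of GC-rich windows. The GC box GGGCGG, which can overlap the word GTGGGCG, lay at 17.1% of summits against 9.06% of windows, and read backwards at 15.2%. The GAGA factor word GAGAGAG lay at 4.85% against 1.62%, the CA repeat CACACACA at 5.54% against 2.05%, and the DRE at 6 summits (1.39% against 0.0712%). The DRE share was close to that of other summits (1.32%). CAGGTG, at 7.39% against 7.92%, and the Su(H) word GTGGGAA, at 1.39% against 1.43%, were not above the windows. A match is a word in the sequence and not a bound site.

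**Figure D5:**
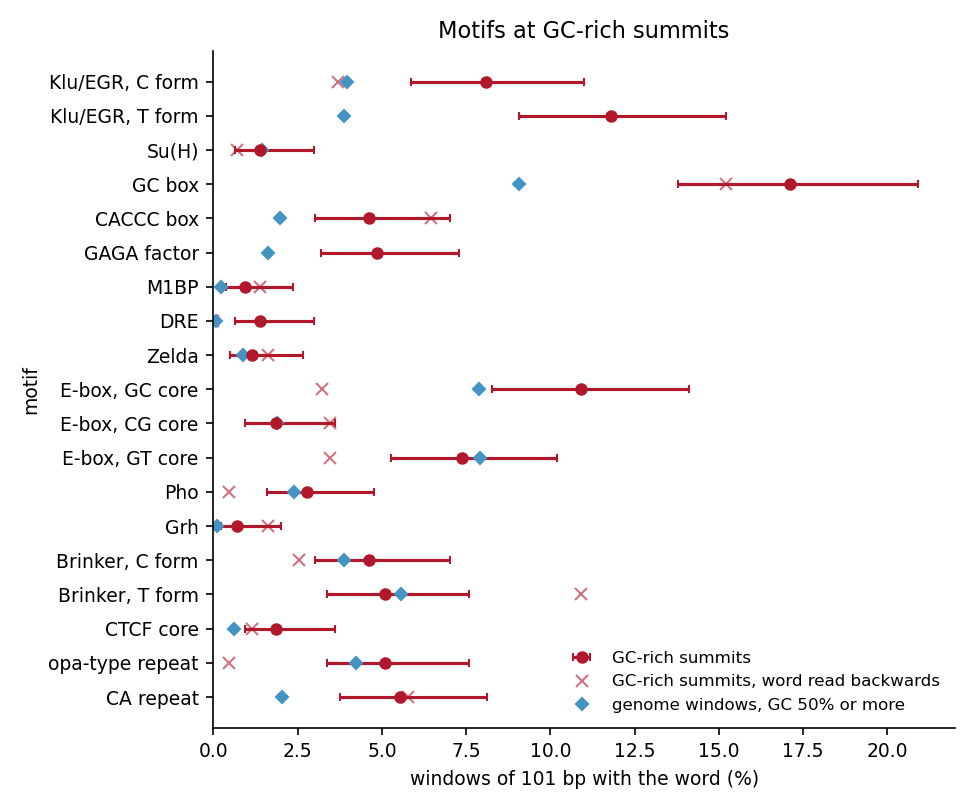
Share (%) of windows of 50 bp to either side that hold each word, at GC-rich summits (points with 95% Wilson intervals), for the same word read backwards (crosses, where it differs) and in genome windows with GC of 50% or more (diamonds). The T form of the Klu/EGR word is at 11.8% of GC-rich summits against 3.89% of the windows.

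GC-rich peaks with a Klu/EGR word were recovered more often by replicate 2 than those without. Its list held 50 of 82 (61.0%) against 147 of 351 (41.9%), a difference of 19.1 points (7.08 to 30.2, Fisher's exact test, adjusted p = 0.00816 over 4 measures). These 4 measures were not among the planned tests. In the conservative list the difference was 6.03 points and did not pass (Fisher's exact test, p = 0.468). They also lay above the pooled median signal more often, 34.1% against 21.1% (Fisher's exact test, adjusted p = 0.0287), while the shares in both lists, 32.9% and 22.5% (adjusted p = 0.0839), and in promoters, 50% and 46.4% (adjusted p = 0.623), did not pass by Fisher's exact test. Beyond those shown above, kay, the fly Fos gene, had a word at a peak of 189, and Mnt, a Max-binding repressor, at a peak of 166.

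Around klu itself GC-rich peaks were frequent and weak. Of 17 pooled peaks within 20 kb of the gene (3L:10981171-11009188), 8 were GC-rich (47.1%, 95% Wilson interval 26.2 to 69.0%) against 425 of 3070 elsewhere (13.8%, Fisher's exact test, p = 0.00107). The strongest, in an intron of klu 3913 bp from a start, had a pooled signal of 113 (38.4 in replicate 1 and 66.9 in replicate 2) and held GTGGGTG, and the weakest, in a coding exon of klu, had 63.6 (49.3 and 22.3). Of the 8, 3 lay in introns of klu, 1 in that exon and 4 in intergenic sequence. The list of replicate 1 held 5 of them and that of replicate 2 held 2. In the list of replicate 2 alone the difference did not pass (Fisher's exact test, p = 0.0602), nor among peaks above the median signal (p = 0.240, Fisher's exact test). The region was compared after its values were seen. The labels give the strain an insertion targeting klu, and any effect of it on peaks in this region was not tested.

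By arm, 2R held 24.9% of GC-rich and 17.3% of other peaks (Fisher's exact test, adjusted p = 0.00134, 18.4% of all peaks) and X held 14.8% and 20.1% (adjusted p = 0.0261, Fisher's exact test). Neither difference passed in the list of either replicate alone. The arms 2L, 3L, 3R and 4 did not pass. Summits near tRNA, snRNA, snoRNA or rRNA genes were few. No gene type passed by Fisher's exact test, adjusted or at an unadjusted 0.05, and the lowest unadjusted p was 0.0534, for 2 GC-rich and 1 other summit near snRNA genes, the GC-rich pair at 7SKa and U1:95Ca.

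A GC-rich summit lay within 1 kb of a start of 287 of 13945 protein-coding genes (2.06%), and any pooled summit of 2243 (16.1%). Of 92 cytoplasmic ribosomal protein genes 11 had one (12%), among them RpL23A (pooled signal 258), RpL7 (223) and RpS21 (155). Of 22 Notch pathway genes 3 had one, the coactivator mam (120.1), the co-repressor gro (76.4) and E(spl)mgamma-HLH (74.3). Of 17 Polycomb and trithorax genes 2 had one, Su(z)2 (160.2) and ph-p (92.6), of 14 glial genes moody and Gs2, of 73 mitochondrial ribosomal protein genes 2 (2.74%), and of 20 segment polarity and signalling genes aop and mid (166). Of 22 neuroblast identity and division genes only numb had one (83.1), and of 19 neuronal differentiation genes only elav (118). None was found among 8 Hox, 13 neuroblast temporal, 16 proneural and sensory organ, 20 muscle and mesoderm, 70 Cpr cuticle and 17 insulator and promoter factor genes. At 2.06% over all genes, lists this short can hold none. The exon peak of pb lay 2160 bp from its start. Of the insulator list 9 had a pooled summit of any GC content, and of the Hox, temporal and Cpr lists 0. Any pooled summit lay near 44.6% of cytoplasmic ribosomal protein, 36.4% of Notch pathway and 31.8% of neuroblast identity and division genes. For neuronal differentiation genes this share was 10.5%, and for all genes 16.1%. The lists carry no test.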

How the data were processed

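The authors deposited 8 peak lists in dm6, per the labels: a ranked and a thresholded list for each of 2 replicates, and 2 of each for the series. The longer thresholded series list (3126 peaks) is the pooled list, the shorter one the conservative list. Column 5 is a score up to 1000, as the authors deposited it. Column 7 is the deposited signal, whose scale the sources used here do not state. For aligner, peak caller and versions, the sources used here name none. From these, 39 peaks off the main arms were left out. GC content and words were read from the RefSeq Release 6 genome, whose arm lengths covered every peak end, and genes came from Ensembl release 115 (BDGP 6.54). A pooled peak was in a replicate's list when it overlapped one of its peaks by 1 bp. Shares were compared with two-sided Fisher's exact tests (scipy 1.17.1), adjusted by Benjamini-Hochberg within each family at 0.05, with Newcombe intervals for differences. Functions were tested on simulated data. Peaks are not independent, so intervals and p-values cover counting error over peaks only and say nothing of the spread between embryo collections. Members and lists were chosen with earlier results of these data known. Some tests were added to those planned. They cover promoter side, the ratio of replicates, peaks with a Klu/EGR word, summit distance, GC content around summits and the klu region. Named peaks are the 20 GC-rich peaks of highest signal that overlap the conservative list, the 5 of highest GC content, those within 20 kb of klu, the 10 strongest with a Klu/EGR word, up to 3 per gene list and up to 5 near small RNA genes. Only some are printed. Sequences on 2R were not used. Alternatives were other lists, GC limits and widths, promoter and gene distances, and each replicate left out.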

Additional observations from a re-analysis of the deposited data

How the results depend on the processing

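Of 355 alternative values over 31 results and 22 settings, 273 stayed much the same, 26 lost the threshold, 4 gained it, 30 moved and 22 changed direction. A test stayed the same when it kept direction and side of the threshold. A count stayed the same when it was near that of the pooled list. A share or word ratio did so when it lay within its interval in the pooled list. The 273 are therefore not all tests. Values below are differences in percentage points, GC-rich minus other peaks, unless named, and the cause of each change was not tested. No paired analysis was possible because there is only 1 group. The restrictions to peaks above the pooled median signal, to peaks in at least 1 replicate's list and to peaks away from klu were chosen after seeing the data.

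Changes of direction were mostly in differences that did not pass in the pooled list. Promoters gave 0.505 in the conservative list, -9.41 to 3.16 with 1 replicate left out (the lower passed, adjusted p = 0.0363 by Fisher's exact test), 7.90 above the median signal, and -11.4 with GC within 100 bp (passed). The 5' UTR gave 0.324 (conservative list), 0.0769 to 0.529 (1 replicate left out), 0.288 and 0.274 (GC within 25 and 100 bp), 0.291 (GC of 45% or more) and 0.750 (narrower promoters). Non-coding exons gave -0.530 to 0.111 (1 replicate left out), -0.531 (without peaks that overlap a stronger one) and -0.0656 (promoters of 1 kb). Intergenic sequence gave -1.06 to 6.79 (1 replicate left out, the higher passed), 3.90 (promoters of 1 kb, passed), -0.274 (GC of 55% or more) and -3.35 (above the median signal), and 3' UTRs gave -0.486 there. Arm 3R gave -0.557 (conservative list) and -1.50 to 0.0588 (1 replicate left out), and 3L gave -0.710 without peaks near klu. Recovery in replicate 1 gave 0.323 with ranked lists, and overlap with a stronger peak -1.04 above the median signal.

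Introns no longer passed with 1 replicate left out (-6.12 to -5.47), with GC within 100 bp (-5.41), in peaks of at least 1 replicate's list (-3.64) or above the median signal (-6.74). Above that median, recovery differences were -7.08 (replicate 1), -3.04 (replicate 2), -9.69 (both) and 0.425 (neither), none passing, and with ranked lists both gave -0.874. The klu region gave 0.794 to 3.10 with 1 replicate left out and 0.772 above the median signal, and recovery of peaks with a Klu/EGR word gave 6.03 in the conservative list.

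The share of GC-rich peaks was 11.9% in the conservative list, 8.47 to 12.5% with 1 replicate left out, 16.3% and 10.8% with GC within 25 and 100 bp, 7.29% and 22.3% at limits of 55 and 45%, 10.6% in peaks of at least 1 replicate's list and 6.61% above the median signal. Location classes that passed numbered 1 to 3 with 1 replicate left out and 1 each in peaks of at least 1 replicate's list and above the median signal, against 2. Arms that passed numbered 1 in the conservative list, with GC within 25 bp and at 45%, and 0 with either replicate left out, at 55% and in those same subsets, against 2. RNA gene types that passed numbered 1 at 45%. Words above the windows numbered 7 to 10 with 1 replicate left out, 6 with GC within 100 bp and 6 above the median signal, against 11. Genes bound numbered 137 to 186 with 1 replicate left out, 151 at 55% and 478 at 45%, against 287. Coding-exon, promoter-side and signal differences kept direction and passed wherever they were recomputed, but the coding-exon difference ranged from 2.80 (above the median signal) to 15.7 (GC of 55% or more), against 9.28. Overlap with a stronger peak gave 3.17 to 19.4 with 1 replicate left out, against 8.60.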

Other observations

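Words of 6 letters were counted at GC-rich summits after the data were seen, so the values are descriptions with no test. Among words at 20 or more GC-rich summits, CCCCCG had the highest ratio to GC-rich genome windows, at 17.6% of summits against 4.16% of windows. CGATAG, which shares CGATA with the DRE word TATCGATA, lay at 7.16% against 2.31%. The CpG dinucleotide was at 0.930 of its expected frequency at GC-rich summits and at 0.857 in GC-rich genome windows, and in promoters at 1.01 against 0.924. At other summits it was at 0.950, so this was no trait of GC-rich summits alone, and in coding exons at 0.862 against 0.865. The GpC dinucleotide was at 1.19 at GC-rich summits, at 1.11 in GC-rich genome windows and, higher than both, at 1.44 at other summits. Most GC-rich peaks were 400 bp wide (95.4%), against 83.4% of other peaks.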
